A study of Mus musculus with 3 samples.

Results

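Cux2-positive hepatocyte nuclei of the Aza-TdC library were nuclei with at least 1 unique molecular identifier (UMI, a count of 1 captured RNA molecule) of Cux2. They were taken from nuclei with at least 1546 UMIs, at most 5% mitochondrial UMIs and at most 2 UMIs summed over 9 genes of other liver cells (Stab2, Ptprb, Clec4f, Cd5l, Adgre1, Reln, Ntm, Skap1 and Gpm6a). The minimum of 1546 UMIs is the smallest total in the SD library. The rule found 1930 such nuclei among 6784 hepatocyte nuclei and 7598 barcodes of that library, and among 21665 barcodes of the whole series. They were compared with the 4854 hepatocyte nuclei of the same library that had 0 Cux2 UMIs, weighted so that each decile of total UMIs counted equally on both sides. The members were thus selected on their Cux2 count, and values of Cux2 itself are given as a description.

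The study profiled single nuclei of frozen liver from male C57BL/6N mice that entered at 8 weeks of age, with 1 library per group. The SD library came from mice on a standard diet. The MASLD library came from mice kept for 18 weeks on a diet meant to cause fatty liver (MASLD, metabolic dysfunction-associated steatotic liver disease), with glucose and fructose in the drink. Mice of the Aza-TdC library had that same diet and drink and were given Aza-TdC (5-aza-4′-thio-2′-deoxycytidine, a nucleoside analogue that lowers the DNA methyltransferase DNMT1) by mouth at 2 mg/kg daily from week 14 to week 18, so diet was shared by the last 2 groups. The sources used here do not give the number of animals behind each library. With 1 library per group no test between groups was possible, and nuclei of 1 library are not replicates. Intervals are 95% intervals for counting error only.

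Cux2 encodes a homeodomain transcription factor of the cut family. In mouse liver it is known as a female-biased factor held down by the male pattern of growth hormone secretion through STAT5, and it binds near many sex-biased genes. Hepatocytes also differ along the lobule: periportal cells carry out urea synthesis, gluconeogenesis and amino acid breakdown, and pericentral cells, under Wnt signalling from the central vein, carry out glutamine synthesis, bile acid synthesis and much of cytochrome P450 metabolism.

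Cux2 (ENSMUSG00000042589) lies on chromosome 5, from 121856366 to 122050102 on the minus strand of GRCm38. The stretches just before its annotated starts are shown because the mice were given an inhibitor of DNA methylation, which acts at CpG. RefSeq's promoter table (GRCm38.p6) holds 2 starts of the gene, at 122049851 and 122047825. In the 250 bases before the first start there were 40 CpG, a number that 1.31% of the 32851 promoters in the table reached, and before the second there were 3, which 71.0% reached. The part printed for the first start, chr5:122049852-122050015, lies in an intron of a longer transcript, and an annotated UTR beyond it is left out. Of the part printed for the second start, the bases nearest that start lie in an exon of another Cux2 transcript. Both are on the minus strand, 5′ to 3′, with CpG in capitals. No methylation was measured in these libraries.
Cux2 first start: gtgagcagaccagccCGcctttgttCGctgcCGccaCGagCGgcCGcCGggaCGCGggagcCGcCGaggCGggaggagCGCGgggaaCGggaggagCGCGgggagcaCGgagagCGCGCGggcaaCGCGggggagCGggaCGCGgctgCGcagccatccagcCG
Cux2 second start (chr5:122047826-122048075): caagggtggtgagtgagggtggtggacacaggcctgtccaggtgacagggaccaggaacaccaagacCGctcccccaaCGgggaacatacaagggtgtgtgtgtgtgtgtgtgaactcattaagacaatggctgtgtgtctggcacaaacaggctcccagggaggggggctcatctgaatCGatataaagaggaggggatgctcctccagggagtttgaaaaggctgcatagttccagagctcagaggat

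Nuclei with Cux2 RNA made up 28.4% (27.4 to 29.5) of hepatocyte nuclei in the Aza-TdC library. The same rule found 61 of 6837 hepatocyte nuclei in the SD library, 0.892% (0.683 to 1.14), and 7 of 6032 in the MASLD library, 0.116% (0.0467 to 0.239). In CPM, counts normalised to the summed UMIs of the nuclei, Cux2 was at 57.1 in Aza-TdC, 1.66 in SD and 0.169 in MASLD. The order Aza-TdC, SD, MASLD held after each nucleus was thinned to 1500 UMIs, at 8.61%, 0.263% and 0.0166%. Among the Aza-TdC nuclei, 1313 held exactly 1 Cux2 UMI, 424 held 2, 126 held 3, and the highest count was 7 in 2 nuclei. The limit of 1 UMI therefore separates 1313 nuclei just inside it from 4854 at 0, and the latter can include nuclei whose Cux2 RNA was not captured.

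Free RNA can give a UMI to any nucleus, so other cells of the Aza-TdC library were read beside this. Nuclei with at least 3 UMIs of Kupffer cell genes had Cux2 in 5 of 249, 2.01% (0.655 to 4.62), at a median of 3420 UMIs against 6766.5 in hepatocyte nuclei. Thinned to 1500 UMIs, the Kupffer share was 0.402%. Stellate nuclei had Cux2 in 6 of 61 (9.84%, and 4.92% at 1500 UMIs) and mesothelial nuclei in 4 of 49 (8.16%, and 2.04%). None of 10 T and NK nuclei had a Cux2 UMI, where a limit of 3 counts allows a share of nuclei with a UMI of up to 30%. Endothelial nuclei had Cux2 in 11.9% (15 of 126) in Aza-TdC, 11.6% (14 of 121) in SD and 7.03% (9 of 128) in MASLD. At 1500 UMIs per nucleus the share was 8.73% in endothelial and 8.61% in hepatocyte nuclei of Aza-TdC, against 7.44% and 0.263% in SD. Cux2 RNA was thus found in endothelial nuclei of all 3 libraries. At matched depth the interval of the Aza-TdC hepatocyte share (7.95 to 9.30) lay above that of Kupffer nuclei (0.0102 to 2.22) and overlapped those of endothelial, stellate and mesothelial nuclei.

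Hepatocyte markers were read against nuclei of the same library over the limit on other cells' genes. Those other nuclei had a median of 2940 UMIs, against 6766.5 in hepatocyte nuclei, so shares of nuclei with a UMI are not at equal depth. Alb, the plasma albumin gene, was in 100% of Cux2-positive and 100% of Cux2-0 nuclei but also in 99.8% of those other nuclei, so its detection does not separate cell types. Apob, the VLDL apolipoprotein, was in 99.3% and 98.6% against 52.5% of other nuclei, and the nuclear receptor gene Hnf4a in 80.5% and 75.9% against 18.7%. In CPM, Hnf4a was at 263 and 248 against 90.2. Apoa1, Ttr and Cps1 separated less by detection, being in 87.0%, 90.2% and 81.1% of other nuclei. Cyp2e1 was in fewer Cux2-positive than Cux2-0 nuclei, 67.9% and 76.1%, against 58.1% of other nuclei. Of the bile duct markers, Krt19 was in 0.207% and 0.247% and Epcam in 0% and 0.0206%. Sox9 was in 3.37% and 2.18%, and Pkhd1 in 43.8% and 39.3%, both above their shares in the shallower other nuclei, 0.868% and 7.38%. In CPM, Sox9 was at 5.08 and 3.49 against 2.24, and Pkhd1 at 87.4 and 87.3 against 25.8. Median depth was 7454.5 UMIs in Cux2-positive and 6482 in Cux2-0 nuclei, and after weighting the means were 8059 and 7925 UMIs. The share with Cux2 went from 16.2% in the shallowest to 39.1% in the deepest decile of the library. Mitochondrial UMIs were at a median of 0.0785% and 0.0833%. Of the 1930 barcodes, 4 also occur in another library.

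Cux2-positive nuclei lay toward the periportal side. Each nucleus was given a pericentral percentage, the UMIs of 33 pericentral genes out of those of the 33 pericentral and 31 periportal genes together. Its median was 18.0% in Cux2-positive and 25.4% in Cux2-0 nuclei. The hepatocyte nuclei of each library were cut by this percentage into 5 zones of equal size, from zone 1 (most periportal) to zone 5 (most pericentral). In Aza-TdC, Cux2 was found in 39.1% of zone 1 (531 of 1357 nuclei), 39.2% of zone 2, 31.3% of zone 3, 21.1% of zone 4 and 11.6% of zone 5 (157 of 1357; 9.92 to 13.4). Median depth in these zones lay between 6477 and 7022 UMIs and was highest in zone 5. After thinning to 1500 UMIs the shares were 12.2%, 12.2%, 9.51%, 5.53% and 3.68%. Before thinning, zones 1 and 2 did not differ beyond their intervals, and each of zones 3, 4 and 5 was lower than the zone before it. After thinning, the intervals of zones 2 and 3 overlapped (10.5 to 14.0 and 8.00 to 11.2). So did those of zones 4 and 5 (4.37 to 6.88 and 2.75 to 4.83).

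The SD library, from which the rule took its UMI minimum but no members, had its few Cux2 nuclei on the same side. There the shares by zone were 1.32% (18 nuclei), 1.39% (19), 1.24% (17), 0.292% (4) and 0.219% (3), from zone 1 to zone 5. The median pericentral percentage was 14.4 in the 61 SD nuclei with Cux2 and 19.9 in those without. In MASLD the 5 zones held 1, 3, 2, 1 and 0 nuclei, too few to order.

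**Figure D1:**
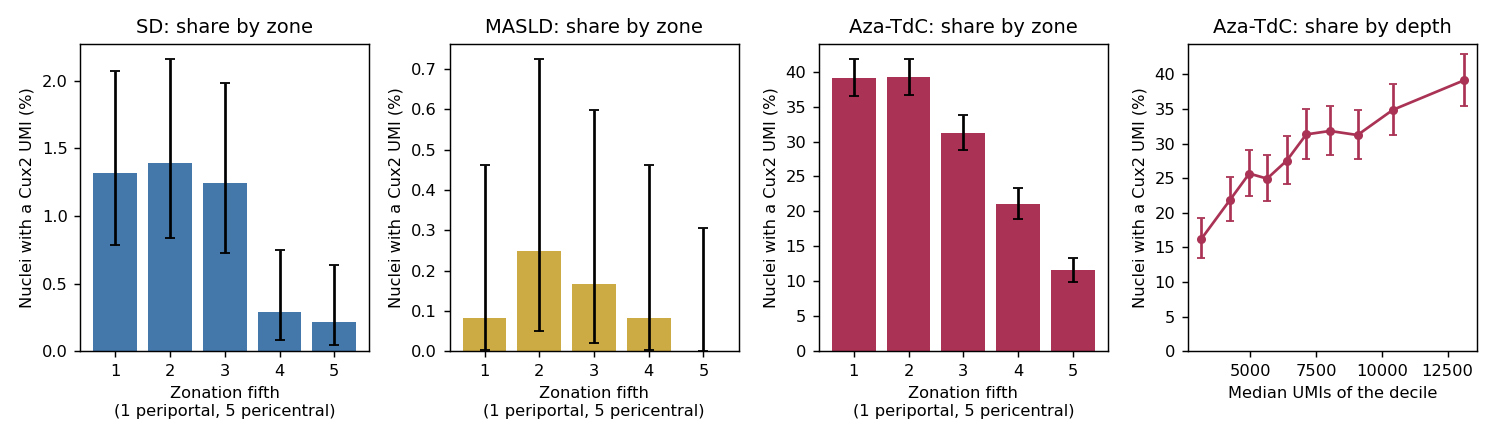
Share of hepatocyte nuclei with at least 1 Cux2 UMI by zone (1 periportal to 5 pericentral) in each library (bars), and by decile of total UMIs in the Aza-TdC library (points), with exact binomial 95% intervals. Vertical scales differ between panels: the Aza-TdC share is 39.1% in zone 1 and 11.6% in zone 5, and the SD share 1.32% and 0.219%.

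Across the transcriptome of the Aza-TdC library, 13815 genes had at least 20 UMIs over both sides. Genes were counted as higher or lower when the log2 ratio of CPM, Cux2-positive over matched Cux2-0 nuclei, was at least 0.5 or at most -0.5 and its interval left out 0. By that measure 246 genes (1.78%) were higher and 366 (2.65%) lower, and the median over all genes was 0.0029. No p-value belongs to these counts, because they come from nuclei of 1 library.

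Pericentral genes were lower almost without exception. Of 32 measured, 23 were lower past the fold and 0 higher, against 2.65% of all genes, all 32 were below 0, and the median log2 ratio was -0.99. These genes also define the pericentral percentage, so both are 1 observation. Slc1a2, a glutamate transporter of the cells around the central vein, was at 49.4 CPM in Cux2-positive and 166 CPM in Cux2-0 nuclei, a log2 ratio of -1.75 (-1.86 to -1.64). Lgr5, the R-spondin receptor, was at 10.6 and 43.3 CPM, a log2 ratio of -2.03 (-2.27 to -1.79). Tbx3, a transcription factor gene induced by Wnt signalling, was at 14.3 and 43.5 CPM, and its antisense neighbour Tbx3os1 at 26.8 and 68.6 CPM.

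The enzymes of the pericentral programme followed the same direction. Glul, glutamine synthetase, was at 69.4 and 161 CPM, a log2 ratio of -1.22. Cyp2e1, an ethanol- and drug-oxidising cytochrome P450, was at 543 and 1140 CPM, a log2 ratio of -1.07. Cyp1a2, a target of the aryl hydrocarbon receptor, was at 6.37 and 18.0 CPM. Cyp2c29 and Cyp2c50, drug-metabolising P450 genes, had log2 ratios of -1.20 and -1.37. Cyp2c29 and its Cyp2c relatives are close in sequence, and how the authors' counting split shared reads is not given, so single Cyp2c values are uncertain.

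Periportal genes were higher, by less. Of 30 measured, 8 were higher past the fold and 0 lower, against 1.78% of all genes, all 30 were above 0, and the median was 0.37. Sds, serine dehydratase, was at 752 CPM in Cux2-positive and 483 CPM in Cux2-0 nuclei, a log2 ratio of 0.64 (0.60 to 0.67). Cyp2f2, a periportal P450, was at 446 and 291 CPM, and Hal, which starts histidine breakdown, at 203 and 128 CPM, log2 ratios of 0.61 and 0.67. Gls2, the liver glutaminase that feeds ammonia to the urea cycle, was at 259 and 174 CPM. Igf1, which encodes the circulating growth factor made under growth hormone, was at 802 and 627 CPM, a log2 ratio of 0.35 that did not reach the fold.

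**Figure D2:**
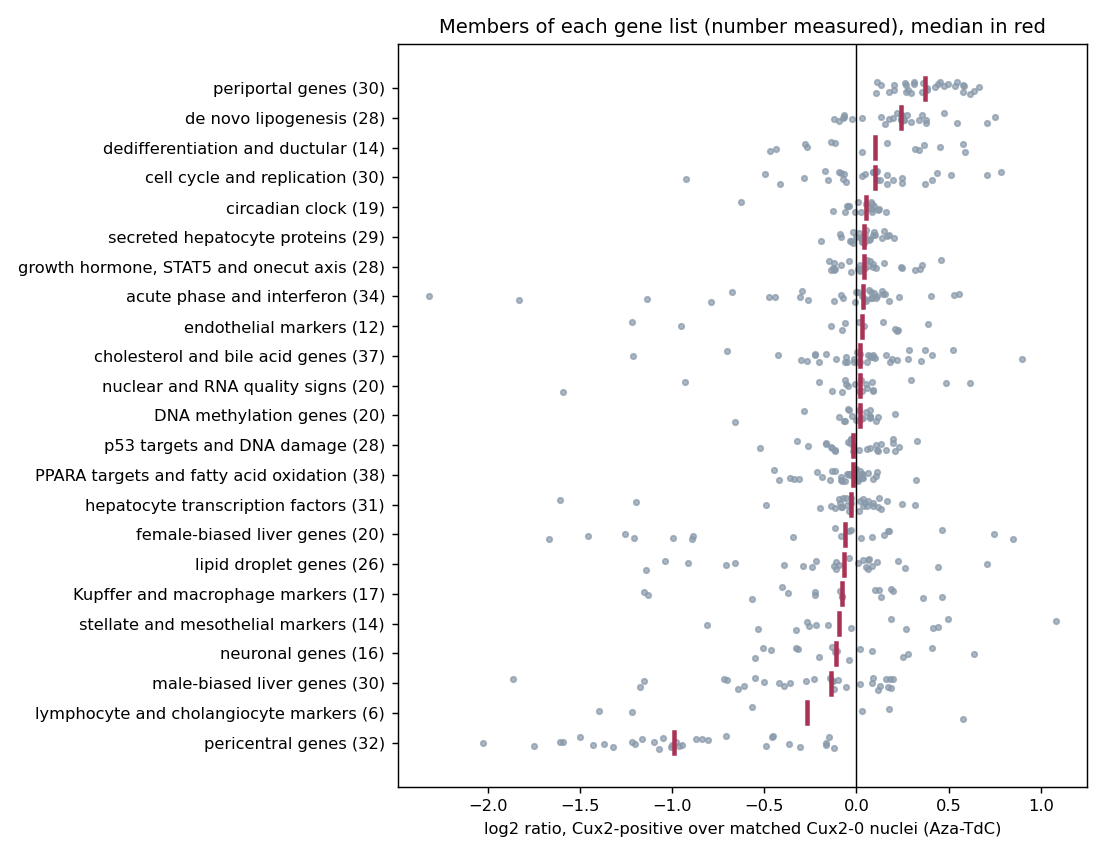
Log2 ratio of CPM in Cux2-positive over matched Cux2-0 nuclei of the Aza-TdC library for each measured member of 23 gene lists (points), with the median in red. The pericentral list has the lowest median at -0.99 and the periportal list the highest at 0.37, and most other medians lie close to 0.

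The 15 highest named genes had log2 ratios from 0.58 to 1.10. Beside Sds, Cyp2f2, Hal and Gls2 they were Zfp429, a zinc finger gene of low level (3.73 against 1.73 CPM), Reck, an inhibitor of matrix metalloproteases (33.1 against 17.5 CPM), Sqle, squalene epoxidase of cholesterol synthesis (10.7 against 5.73 CPM), and Acpp, an acid phosphatase (17.6 against 9.50 CPM). The set went on with Chrna4, a nicotinic receptor subunit, Nipal1, a magnesium transporter, Cyp17a1, a steroid 17-hydroxylase, and Pnpla3, a lipid droplet lipase of the fatty liver risk locus. It ended with Grm8, a glutamate receptor, Cryl1, an enzyme of the uronate cycle, and Mt2, a metallothionein. Pnpla3 was at 165 CPM in Cux2-positive and 101 CPM in Cux2-0 nuclei, and Grm8 at 345 and 215 CPM.

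These UMIs were spread over many nuclei. Sds was detected in 85.0% of Cux2-positive and 67.5% of matched Cux2-0 nuclei, Grm8 in 63.0% and 41.9%, and Reck in 19.5% and 10.8%. The 10 nuclei richest in a gene held between 0.997% of its UMIs (Sds) and 13.1% (Zfp429) for these 15 genes.

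The 15 lowest named genes had log2 ratios from -2.46 to -1.20. Beside Lgr5, Slc1a2, Tbx3, Tbx3os1, Cyp1a2 and Cyp2c50 they were Kif26b, a kinesin family gene (1.61 against 8.87 CPM), Adgrg2, an adhesion receptor (6.75 against 22.4 CPM), Pdgfc, a platelet-derived growth factor (9.39 against 25.1 CPM), Abcc4, a bile acid and nucleotide exporter (26.2 against 67.4 CPM), and Airn, an imprinted noncoding RNA (64.5 against 154 CPM). Tox, an HMG-box factor gene, was at 332 and 766 CPM, and Tenm3, a teneurin, at 185 and 430 CPM.

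Saa2, an acute phase protein, and Pcdh11x, a protocadherin, also ranked among these 15, but their UMIs sat in few nuclei. The 10 richest nuclei held 69.3% of 212 Saa2 UMIs and 71.3% of 244 Pcdh11x UMIs, so the counting intervals of both are too narrow. By the share of nuclei with a UMI, Saa2 was in 0.933% of Cux2-positive and 1.18% of Cux2-0 nuclei, and Pcdh11x in 0.622% and 0.962%. Both stay in the counts over the 15 lowest genes that follow.

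Levels were ordered with the number of Cux2 UMIs in the nucleus. For nuclei with 0, 1 and at least 2 Cux2 UMIs, at the same spread of depth, Slc1a2 was at 166, 60.8 and 30.1 CPM, Lgr5 at 43.3, 12.4 and 6.97 CPM, and Tox at 766, 407 and 198 CPM. In the other direction Sds was at 483, 701 and 849 CPM, and Grm8 at 215, 310 and 412 CPM. The step from 0 Cux2 UMIs is the contrast by which the 15 highest and 15 lowest genes were chosen, so their order is a description. It was unbroken for 14 of the 15 highest genes, all but Zfp429, and for 14 of the 15 lowest, all but Saa2. Of the pericentral list 27 of 32 members were lower at each step, and of the periportal list 25 of 30 were higher at each step. Summed over each list, pericentral RNA was at 9898, 7025 and 5527 CPM and periportal RNA at 16428, 19315 and 20397 CPM.

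**Figure D3:**
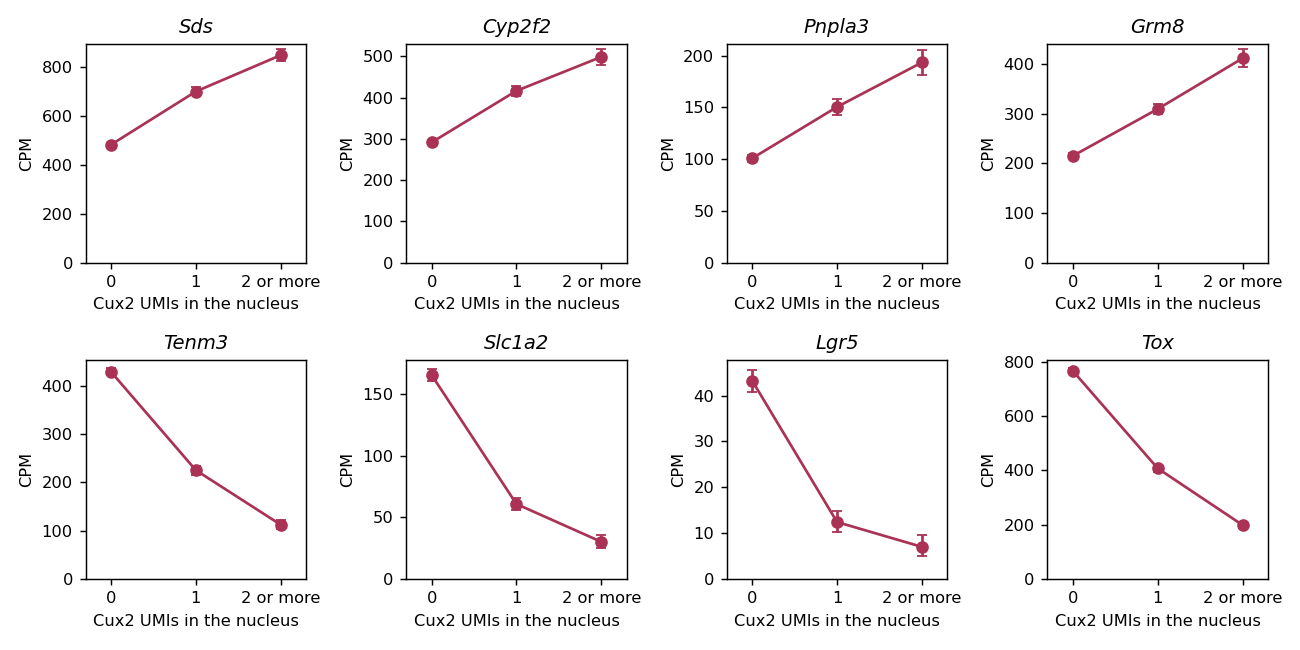
Level (CPM) of 4 genes higher and 4 genes lower in Cux2-positive nuclei, in Aza-TdC hepatocyte nuclei with 0, 1 and at least 2 Cux2 UMIs. Values are weighted to the same depth, with exact Poisson 95% intervals. Sds goes from 483 to 849 CPM and Slc1a2 from 166 to 30.1 CPM.

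Most of the difference was no longer seen among nuclei of the same zone. When Cux2-0 nuclei were matched on zone as well as on depth, 91 of 13773 genes (0.661%) were higher and 145 (1.05%) lower. The pericentral median went from -0.99 to -0.04, and 1 member stayed past the fold. The periportal median went from 0.37 to 0.02. This matching uses the genes of both lists, so that part follows from how it was made. The same holds in part for the next values. Sds, Cyp2f2, Hal and Gls2 of the 15 highest genes are in the periportal list. Lgr5, Slc1a2, Tbx3, Cyp1a2 and Cyp2c50 of the 15 lowest are in the pericentral list. Among the 15 highest genes, all 15 stayed above 0 with intervals that left out 0, but the median ratio went from 0.71 to 0.18. Among the 15 lowest, 13 kept an interval under 0 and the median went from -1.50 to -0.31.

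Within zones, Zfp429 was at 0.86 (0.29 to 1.43) and the other 14 of the highest genes at no more than 0.41 (Acpp; 0.16 to 0.66). On the low side Pcdh11x was at -2.48 (-3.16 to -1.85) and Saa2 at -2.01 (-2.80 to -1.30), the 2 genes whose UMIs sat in few nuclei. Kif26b followed at -0.82 (-1.48 to -0.22), with 25.5% of its UMIs in 10 nuclei, and Tbx3 at -0.48 (-0.70 to -0.26). A setting added after seeing the data took 20 zones in place of 5, and 5 bins of depth in place of deciles. With it, the 15 highest genes kept a median of 0.15 with all 15 above 0. Of the 15 lowest, 4 then lay above 0, among them Slc1a2 at 0.28 and Tox at 0.07, and the pericentral median was 0.05.

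**Figure D4:**
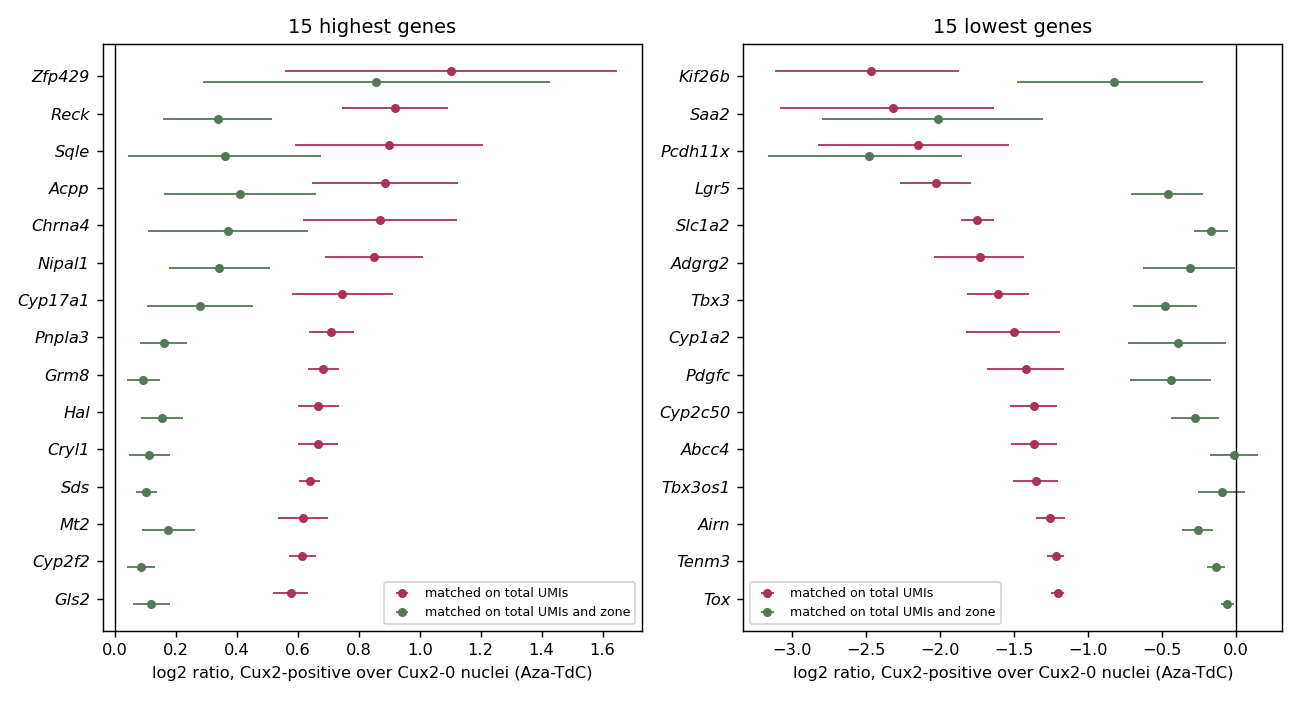
Log2 ratio of CPM in Cux2-positive over Cux2-0 nuclei of the Aza-TdC library for the 15 highest and 15 lowest named genes, with exact 95% counting intervals, matched on total UMIs (red) and on total UMIs and zone (green). Matching on zone moves the median of the 15 highest from 0.71 to 0.18 and of the 15 lowest from -1.50 to -0.31. Some genes of both sets are themselves among those that define the zones.

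Sex-biased genes, by which Cux2 is best known in liver, were in 2 lists, to be read against 1.78% higher and 2.65% lower over all genes. Of the female-biased list 20 members were measured, of which 2 were higher and 6 lower, with a median of -0.06. The 2 higher were Cyp17a1 (33.7 against 20.1 CPM) and Nipal1 (37.5 against 20.8 CPM). The 6 lower were Cyp2c40, Slc22a27, Cyp2c39, Tox, Slc22a26 and Vldlr, of which Tox alone was above 20 CPM on either side. For Cyp2c40, 10 nuclei held 57.1% of its 42 UMIs. Of the male-biased list 30 members were measured, 0 higher and 8 lower, with a median of -0.14. They were Hsd3b5, Susd4, C6, Elovl3, Cyp7b1, Mup11, Slco1a1 and Mup17. C6, a complement component, was at 81.5 and 181 CPM and Cyp7b1, an oxysterol hydroxylase, at 205 and 333 CPM. Matched on zone, 0 of either list was past the fold in either direction. Over all genes 0.661% were then higher and 1.05% lower, so 0 is near the background. The medians were 0.07 for female-biased and -0.05 for male-biased genes.

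Growth hormone signalling genes differed by less than the fold. Of 28 measured members of that list 0 were past it in either direction. Against 1.78% higher and 2.65% lower over all genes, 0 of 28 is near the background. The median was 0.04, with 19 members above 0 and 9 below. The highest member was Cish at 0.46 (0.11 to 0.80), and Igf1 was at 0.35 (0.32 to 0.39). Matched on zone they were at 0.17 (-0.19 to 0.53) and 0.02 (-0.02 to 0.05). Ghr, the growth hormone receptor, was at 4237 and 4330 CPM, Stat5b, its main transducer, at 173 and 172 CPM, and Bcl6, a repressor that opposes STAT5, at 206 and 225 CPM. Onecut1, encoding the HNF6 factor that activates Cux2 in female liver, was at 70.3 and 56.4 CPM, a log2 ratio of 0.32 (0.21 to 0.43). Matched on zone, Onecut1 was at 0.04 (-0.08 to 0.15). Cux1, the close relative of Cux2, was at 196 and 194 CPM, a log2 ratio of 0.02 (-0.04 to 0.08).

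Of 20 measured genes of DNA methylation, 0 were higher and 1 was lower, Gadd45b, a stress-induced gene, at 5.01 and 7.91 CPM, with a list median of 0.02. Against the 1.78% and 2.65% of all genes, 0 or 1 of 20 to 30 members is near the background, here and for the next 2 lists. Dnmt1, the maintenance methyltransferase, was at 9.32 and 9.96 CPM, a log2 ratio of -0.10 (-0.39 to 0.19). Of 28 p53 targets 0 were higher and 1 lower, the stress cytokine Gdf15 at 19.4 and 27.8 CPM, and of 30 cell cycle genes 0 were past the fold.

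In the de novo lipogenesis list 22 of 28 measured members were above 0, the median was 0.24, and 3 were higher past the fold, against 1.78% of all genes. These were Pnpla3, Scd2, a stearoyl-CoA desaturase at 2.06 and 1.22 CPM, and Acly, which makes cytosolic acetyl-CoA, at 122 and 83.8 CPM. In the lipid droplet list 5 of 26 were lower, namely Pparg, Fitm1, Plin4, Cidec and Lpl, against 2.65% of all genes, and Pnpla3, which is in both lists, was higher. Matched on zone, 0 members of either list were past the fold, and the medians were 0.08 and -0.01. Over all genes 0.661% were then higher and 1.05% lower, so 0 is near the background. Pparg, the lipid storage receptor gene, was at 38.2 and 84.2 CPM and the droplet coat gene Plin4 at 98.9 and 186 CPM. Of 38 genes of PPARA and fatty acid oxidation, 0 were past the fold, with a median of -0.02.

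The counts of the next lists are again to be read against 1.78% higher and 2.65% lower over all genes. Cholesterol and bile acid genes gave 2 higher and 2 lower of 37, and 0 and 0 when matched on zone. With that matching 0.661% of all genes were higher and 1.05% lower, so 0 of 37 is near the background. Sqle and Mvd (6.24 against 4.33 CPM), of cholesterol synthesis, were higher, and Cyp7a1, whose enzyme takes the first step from cholesterol to bile acids, was lower at 190 and 440 CPM, as was Cyp7b1. Among 31 hepatocyte transcription factors, 2 were lower, Tbx3 and the orphan receptor Esrrg (129 against 296 CPM), and 0 were higher. The 19 circadian clock genes and 29 secreted proteins gave 0 past the fold. Of 34 acute phase and interferon genes, Oasl1 was higher and Saa2, Rsad2 and Cxcl10 were lower, the last 3 at 1.22, 0.579 and 0.772 CPM in Cux2-positive nuclei. As for Saa2, 10 nuclei held most UMIs of Rsad2 (79.2%) and Cxcl10 (72.5%). Matched on zone, 0 of these 34 genes were higher and 6 lower, against 1.05% of all genes lower. Ifit1, at -1.08 (-2.02 to -0.23), was among them, with 39.0% of its UMIs in 10 nuclei. In the list of dedifferentiation and ductular genes 2 of 14 were higher, Sox9 and the fetal gene Afp, the latter with 62.7% of its UMIs in 10 nuclei. Of 16 neuronal genes Grid1 alone was past the fold, higher.

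Markers of other cells were limited by the rule itself, which admits at most 2 UMIs over 9 of them, so their low level is no finding. Counts past the fold here are to be read against 1.78% higher and 2.65% lower over all genes. The summed level of 20 Kupffer and macrophage markers was 415 CPM in Cux2-positive and 506 CPM in Cux2-0 nuclei. C6, which hepatocytes also make, held 81.5 and 181 CPM of that, so the lower sum rests on it. Of 17 measured, 2 were lower, C6 and Adgre1 (0.643 against 1.41 CPM), against 2.65% of all genes. Endothelial markers summed to 83.2 and 74.2 CPM, of which Meis2 held 63.1 and 53.9 CPM. Of 12 measured, 2 were lower (Fcgr2b and Stab1, log2 ratios of -1.22 and -0.95), with 7 and 16 UMIs in Cux2-positive nuclei. Stellate and mesothelial markers summed to 88.5 and 82.6 CPM, with 0 of 14 past the fold. Of the genes the rule limits, and as a description only, Stab2 was in 2.85% of Cux2-positive and 2.82% of Cux2-0 nuclei and Clec4f in 5.85% and 5.07%. In the list of RNA quality signs, Mt2 was higher and the heat shock genes Hspa1a (73.0% of its UMIs in 10 nuclei) and Hspa1b lower, and the median was 0.02. Of 6 measured lymphocyte and bile duct markers, 1 was higher (Sox9) and 2 lower (Bank1 and Themis, log2 ratios of -1.40 and -1.22). Bank1 had 10 UMIs in Cux2-positive nuclei, and 10 nuclei held 30.8% of all its UMIs. Matched on zone, Sox9 was at -0.025 and Themis at 0.078. The part of other cells' markers in the results was not tested.

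Around Cux2, 25 annotated genes start within 500 kb, of which 20 were measured. Of the 18 with at least 50 UMIs, ratios lay between -0.22 and 0.19. Aldh2, mitochondrial aldehyde dehydrogenase and the most distant of them at 456 kb, was at 386 and 432 CPM. Past the fold was 1 gene, the noncoding Gm42829, with 16 UMIs in Cux2-positive nuclei.

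Side by side in the SD library, with 61 Cux2-positive and 6776 Cux2-0 nuclei, the same direction was seen for the zonation genes. Of 25 pericentral genes measured there 23 were below 0, with a median of -0.56, and of 24 periportal genes 24 were above 0, with a median of 0.16. Of the 15 highest and 15 lowest genes of the Aza-TdC library, 9 of each could be measured in SD, and all 9 and all 9 had the same sign. For Reck, Hal, Cryl1, Cyp2c50 and Cyp1a2 the SD interval included 0. Sds, Cyp2f2, Hal, Gls2, Lgr5, Slc1a2, Tbx3, Cyp1a2 and Cyp2c50 also belong to the zonation lists just counted. SD nuclei were not matched on zone. Slc1a2 had 7 UMIs in the SD nuclei with Cux2 against 89.4 matched UMIs, Tox 140 against 366, Sds 447 against 327 and Grm8 44 against 22.3. Cyp7a1 did not share the direction, with 70 against 69.5 UMIs and a log2 ratio of 0.04 (-0.33 to 0.38).

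**Figure D5:**
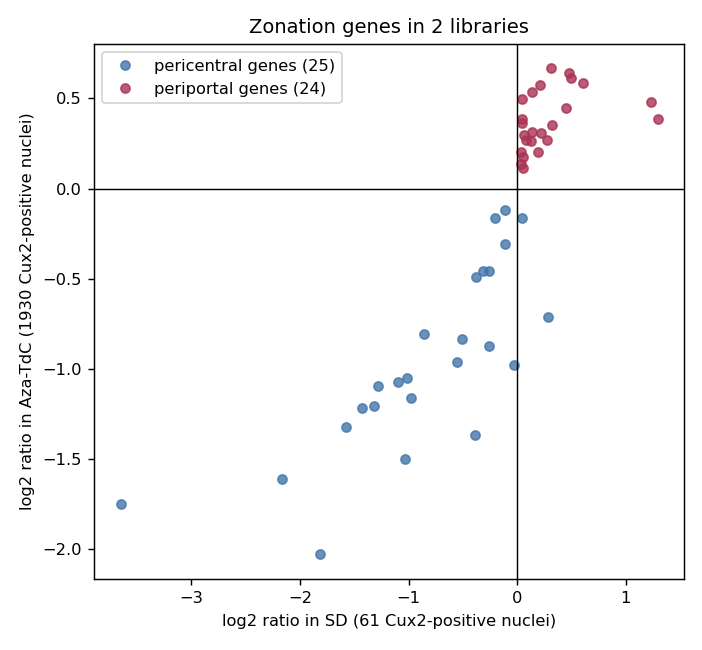
Log2 ratio of CPM, Cux2-positive over matched Cux2-0 nuclei, for zonation genes with at least 20 UMIs in SD (horizontal axis) and Aza-TdC (vertical axis). Pericentral genes lie below 0 in Aza-TdC and 23 of 25 do so in SD, and the 24 periportal genes lie above 0 in both.

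A test with replication was possible only over the 3 libraries, each giving 1 sum of Cux2-positive nuclei and 1 sum of as many Cux2-0 nuclei per decile. Of 7174 genes tested with edgeR's quasi-likelihood test with the library as block, 50 (0.697%) rose and 86 (1.20%) fell in Cux2-positive nuclei at an adjusted p under 0.05. The 10 lowest p among genes that fell belonged to Slc1a2, Tox, Tenm3, Esrrg, C6, Cyp2c38, Cyp2c29, Glul, Cyp7a1 and Cyp2e1, and among those that rose to Sds, Cyp2f2, Grm8, Cryl1, Pnpla3, Gls2, Etnppl, Chrm3, Acly and Hal. Slc1a2 fell by 1.97 on the log2 scale (edgeR adjusted p = 5.9e-20), with 7 against 136 UMIs in SD, 1 against 27 in MASLD and 768 against 2454 in Aza-TdC. Sds rose by 0.67 (edgeR adjusted p = 3.3e-08), with 447 against 282, 25 against 13 and 11690 against 7249 UMIs. Both were on the same side in 3 of 3 libraries. Cyp2c29 was not, with 12 against 1 UMI in MASLD. Cyp7a1 had 70 against 99 UMIs in SD with the nuclei drawn for this test, but 70 against 69.5 over all matched SD nuclei. Of the pericentral list 19 of 25 tested genes fell and 0 rose, of the periportal list 10 of 25 rose and 0 fell, and of de novo lipogenesis 8 of 26 rose and 0 fell. Nuclei for this test were drawn by decile of total UMIs and not by zone. Its calls therefore cannot be told apart from differences in zone.

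These calls rest on libraries of very unequal size, with 1930, 61 and 7 Cux2-positive nuclei in Aza-TdC, SD and MASLD. Without the SD library 0 genes passed in either direction (49 higher and 97 lower at an unadjusted p under 0.05), and without MASLD 45 rose and 108 fell. Without Aza-TdC, on SD and MASLD alone, 0 rose and 8 fell: Slc1a2, Glul, Pdzrn3, Tox, Cyp2c38, Tenm3, C6 and Cyp2e1. DESeq2 on the same sums of all 3 libraries called 2 higher and 18 lower. Whether the association is the same size in the 3 libraries was not tested.

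In the 250 bases before the start, 8 of 22 pericentral genes in RefSeq's promoter table held the TCF/LEF core CTTTGAT or CTTTGAA on either strand (36.4%), against 3 of 22 periportal genes (13.6%) and 8.63% of all 27025 genes. Slc1a2 had it 207 bases before the start, Cyp2e1 135 and Cyp2c29 119. The core bound by cut and onecut factors, ATCGAT or ATTGAT, was in 5 of 22 pericentral (22.7%) and 2 of 22 periportal genes (9.09%), against 8.48% of all genes. Of the 15 highest and 15 lowest genes 11 each were in the table, and 1 and 2 of them held it. These are matches of letters in a short window and no measure of binding.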

How the data were processed

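Per the labels' protocols, each library came from 120 mg of cryopreserved tissue whose DAPI-stained nuclei were sorted and loaded on the 10x Genomics 3′ system. The values deposited by the authors are UMI counts, not normalized, for each gene in each nucleus. Cell Ranger 6.1.2 made them, per the file headers. The submitters' processing notes also name Seurat 4.4.0 and 2 builds, mm10 and GRCm38, with no role. Whether intronic reads were counted, or free RNA and doublets removed, was not stated, and no doublet caller was run here. Coordinates came from GENCODE M21 (GRCm38), which held 32158 of 32285 features.

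The members and gene lists were chosen with earlier results of these data known. Summed over all barcodes, the SD library held 45162618 UMIs, the MASLD library 43569644 and the Aza-TdC library 51789068, with medians per barcode of 5849, 5923 and 6383. Left out of the Aza-TdC hepatocyte nuclei were 350 barcodes under the UMI minimum, 7 over the mitochondrial limit and 636 over the limit on other cells' genes, some of them for more than 1 reason. Cux2-0 nuclei were weighted to the Cux2-positive nuclei by decile of total UMIs, with Cux2 left out of totals. Ratios have exact conditional binomial intervals, levels exact Poisson and shares exact Clopper-Pearson intervals. Each pair of libraries shared 9 to 15 barcodes.

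To choose the genes named, ratios were ranked by whichever end of the interval lay closest to 0, among genes with 50 or more UMIs on the higher side; the 15 at either end were taken. Added to them were up to 4 members of each of 23 lists by size of ratio, Cux2, Cux1, Onecut1, Bcl6, Stat5b, Ghr and Dnmt1, genes within 500 kb of Cux2, and the 10 lowest p each way of the test over libraries. Unnamed and mitochondrial transcripts were passed over; other genes in the text were chosen after their values were seen. For that test, counts were summed per library and fitted with edgeR 4.0.16 (R 4.3.3, TMM, filterByExpr), with the library as block because both sums come from 1 library; nothing says the libraries hold more than 1 animal. DESeq2 1.42.0 was an alternative. The ratio and the edgeR fit were checked on simulated counts with known changes. Python 3.11.15, numpy 2.4.6, scipy 1.17.1 and pandas 2.3.3 were used. Other matching, filters, scaling and minimum counts were each tried alone, except that finer zones came with wider bins of depth.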

Additional observations from a re-analysis of the deposited data

Results flagged for a closer look

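Barcodes of the Aza-TdC library under 1546 UMIs, which no comparison used, also held Cux2. Of 350 such barcodes 11 had a Cux2 UMI, 3.14% (1.58 to 5.55), at a median of 1022.5 UMIs, against 4 of 431 in MASLD, 0.928% (0.253 to 2.36), at 1139 UMIs, and the SD library had 0 such barcodes. Which cells or free RNA these barcodes hold was not tested.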

How the results depend on the processing

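The 1930 members rest on 1 UMI each in 1313 nuclei, and a nucleus of the median depth can miss Cux2 RNA. With at least 2 Cux2 UMIs the shares were 9.09% in Aza-TdC, 0.146% in SD and 0% in MASLD, the pericentral and periportal medians -1.54 and 0.50, and the log2 ratio of the share in zone 5 over zone 1 went from -1.76 to -2.91. Matched on zone too, 91 genes were higher and 145 lower, with medians of -0.036 and 0.023 for pericentral and periportal genes. Alternatives added after seeing the data were 20 zones with 5 bins of depth, and leaving out zone 5, the most pericentral. The first gave 86 higher, 141 lower and medians of 0.049 and 0.012. The second gave 115 higher, 208 lower and medians of -0.37 and 0.14. A minimum of 100 UMIs per gene gave 129 and 195. The other alternatives kept both counts of genes within 1.5 times, and both medians within their spread over members.

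Over the 3 libraries, edgeR called 0 genes higher and 0 lower without the replicate block (5 and 29 at an unadjusted p under 0.05), and DESeq2 2 and 18. Leaving out 1 library gave 0 to 45 higher and 0 to 108 lower. The cause of these differences was not tested.

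Past the fold in the main contrast, these genes crossed 0. Matched on zone too: Susd4 0.26, Afp -0.0059, Sox9 -0.025 and Themis 0.078. Matched on 20 zones, with wider bins of depth: Slc1a2 0.28, Abcc4 0.21, Tbx3os1 0.10, Tox 0.073, Slc22a27 0.017, Susd4 0.39, Slc13a3 0.22, Cyp7a1 0.12, Esrrg 0.0064, Sox9 -0.040 and Themis 0.21. Without zone 5: Lgr5 0.038, Slc1a2 0.0100 and Themis 0.055. With at least 2 Cux2 UMIs: Afp -0.11.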
